A study of Homo sapiens with 2 samples.

Results

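HUCCT-1 cells, a long-established line from a human intrahepatic bile duct carcinoma, were compared after 48 h with vehicle or with 5 μM XY101, an antagonist of the nuclear receptor RORγ. There was 1 vehicle library and 1 XY101 library of poly(A)-selected RNA, both from cells grown in RPMI-1640 with fetal bovine serum. The sample labels also name GSK805, another RORγ antagonist not analysed here. The comparison below is about 10 genes of the activin and BMP pathways, chosen by name from among 16654 genes with a value in both libraries: the activin subunit genes INHBA and INHBB, the activin antagonist genes FST and FSTL3, the ligand gene BMP4, the inhibitory SMAD gene SMAD7, and the transcription regulator genes ID1, ID2, ID3 and ATOH8. They were chosen with their XY101 to vehicle ratios in view, so these ratios are given as a description of 2 libraries.

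Activins and BMPs are secreted dimers of the TGF-β family. They bind pairs of type I and type II serine/threonine kinase receptors, which phosphorylate SMAD2 and SMAD3 (activins and TGF-β) or SMAD1, SMAD5 and SMAD9 (BMPs). The phosphorylated SMADs join SMAD4, enter the nucleus and act on target genes, of which the ID genes are the best known for BMPs. Follistatin (FST) and FSTL3 trap activins outside the cell, and SMAD7 blocks the receptors from within.

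In the XY101 library the activin subunit and antagonist genes were lower, and BMP4, SMAD7, the ID genes and ATOH8 were higher. FST was 4.05-fold and INHBA 2.29-fold lower. ATOH8 was 4.73-fold, ID1 2.46-fold and ID3 2.24-fold higher. The other 5 genes differed by less than 2-fold. All 10 genes had a mean of at least 1 FPKM, that is, fragments scaled to transcript length and to the mapped fragments of the library. Each condition had 1 library here, the vehicle one labelled as replicate 2, so no test was run and no p-value or standard error exists. In cultures sequenced in bulk, fewer cells that express a gene and less of its RNA per cell cannot be told apart.

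The promoter sequences of the 5 genes that differed by at least 2-fold are shown because these 5 had the largest differences of the 10. Each is the run of 250 bases just before the start annotated by RefSeq, read 5′ to 3′ on the gene's strand in build GRCh38.p14. Capitals mark CAGAC, the core that SMAD proteins bind, and TATAA, the core of the TATA box, each searched on both strands (GTCTG and TTATA are the reverse forms). The windows of ID1 (chr20:31605039-31605288, plus strand), ID3 (chr1:23559502-23559751, minus strand) and ATOH8 (chr2:85753741-85753990, plus strand), which were higher with XY101, read as follows.
ID1: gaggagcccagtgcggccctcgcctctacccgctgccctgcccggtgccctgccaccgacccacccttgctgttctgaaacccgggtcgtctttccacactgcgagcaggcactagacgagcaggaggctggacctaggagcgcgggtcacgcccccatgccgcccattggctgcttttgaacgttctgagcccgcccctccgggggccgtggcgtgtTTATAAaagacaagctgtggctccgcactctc
ID3: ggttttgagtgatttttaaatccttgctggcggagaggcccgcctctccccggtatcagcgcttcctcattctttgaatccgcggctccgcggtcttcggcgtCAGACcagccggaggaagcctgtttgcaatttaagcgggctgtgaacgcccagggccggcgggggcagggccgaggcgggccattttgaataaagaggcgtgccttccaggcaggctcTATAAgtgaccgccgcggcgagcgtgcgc
ATOH8: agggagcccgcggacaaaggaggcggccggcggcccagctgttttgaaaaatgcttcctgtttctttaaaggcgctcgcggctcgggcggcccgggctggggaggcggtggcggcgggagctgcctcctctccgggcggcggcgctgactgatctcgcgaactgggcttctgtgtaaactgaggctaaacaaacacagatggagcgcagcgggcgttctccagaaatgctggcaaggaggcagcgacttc
The windows of FST (chr5:53480379-53480628, plus strand) and INHBA (chr7:41703091-41703340, minus strand), which were lower with XY101, read as follows.
FST: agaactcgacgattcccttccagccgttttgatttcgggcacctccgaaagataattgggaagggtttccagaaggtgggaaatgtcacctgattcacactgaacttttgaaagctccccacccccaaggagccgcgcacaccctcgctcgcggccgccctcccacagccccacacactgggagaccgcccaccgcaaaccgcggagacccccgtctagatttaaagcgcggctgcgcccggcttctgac
INHBA: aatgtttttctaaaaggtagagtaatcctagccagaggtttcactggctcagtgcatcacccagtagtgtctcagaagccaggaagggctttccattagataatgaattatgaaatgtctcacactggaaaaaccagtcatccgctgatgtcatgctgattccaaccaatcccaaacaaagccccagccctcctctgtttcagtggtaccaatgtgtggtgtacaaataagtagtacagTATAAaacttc

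Of these 5 windows, only that of ID3 held CAGAC, 147 bases before the start. ID1 and ID3 both held TATAA close to the start, at 31 and 29 bases before it, counted to the first letter of the match, and in ID1 it overlaps its reverse form. INHBA held TATAA 11 bases before its start. ATOH8 and FST held none of the motifs. RefSeq lists several starts for BMP4 and SMAD7, so the 10 genes have 14 windows. CAGAC was in 5 of the 14 windows (35.7%), those of ID3, BMP4 and SMAD7, against 38.0% of all 35116 RefSeq windows of this length. GGCGCC, a GC-rich element that SMAD1 and SMAD5 can bind and its own reverse complement, was in 3 windows (21.4%), those of INHBB, FSTL3 and BMP4, against 16.4% of all. TATAA was in 6 windows (42.9%) against 18.9% of all, and it was added to the search after the windows had been read. CpG dinucleotides were more frequent than in the median window, which held 11, in 12 of the 14. The other 2 were that of INHBA, with 1 CpG and 42.8% G and C, and a window of SMAD7, with 2 CpG and 48.4%, beside 19 CpG and 66.0% for ID1. A match is a run of letters and not a binding site, and a missing match says only that these letters are not in the window.

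The sum of all FPKM was 858282.3 for vehicle and 832819.8 for XY101, with 14666 and 14719 genes above 0. Depth is not stated with the values. Where a gene has only 1 annotated transcript, low FPKM values fall on steps worth 1 fragment each, and these steps put the depth at about 17500000 and 18500000 fragments, at which 88.9% and 82.5% of the values examined were whole within 0.2 fragments, against at most 61.1% and 59.2% with shuffled lengths. All 8 biliary epithelial markers listed were above 1 FPKM in both libraries, led by KRT7 at 5080.23 FPKM with vehicle. Their summed level was 10050.05 FPKM with vehicle and 8435.44 with XY101, and SOX9 was 14.61 and 7.41 FPKM. The part of these markers in the results below was not tested. The 5 endothelial markers summed to 0.73 and 0.71 FPKM and the 8 fibroblast markers to 8.43 and 11.53 FPKM, with PDGFRA at 0.02 FPKM in both. The leukocyte markers summed to 66.0 and 51.22 FPKM, nearly all of it CD68, while PTPRC was at 0.02 and 0.00 FPKM. Of 7 hepatocyte markers, 2 had a value here, SERPINA1 at 179.49 and 214.25 FPKM and APOA1 at 0.09 and 0.10 FPKM.

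For each gene log2((XY101 + 0.1)/(vehicle + 0.1)) was computed from the FPKM values, which understates the difference of low genes. Over 10894 genes with a mean of at least 1 FPKM the median log2 ratio was 0.09, and 90% of genes lay between -0.40 and 0.58. Among these genes 127 (1.17%) reached 2-fold higher in the XY101 library, and 76 (0.698%) reached 2-fold lower. Of the 10 genes, 3 were at least 2-fold higher and 2 at least 2-fold lower, and 8 lay outside the central 90%. The choice of the genes rests on these ratios, so nothing is read from the counts. At a 1.5-fold limit, 4 were higher (4.90% of all genes) and 2 lower (2.32%). Just inside the 2-fold limit lay ID3 and INHBA, and just outside lay ID2 and FSTL3.

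**Figure D1:**
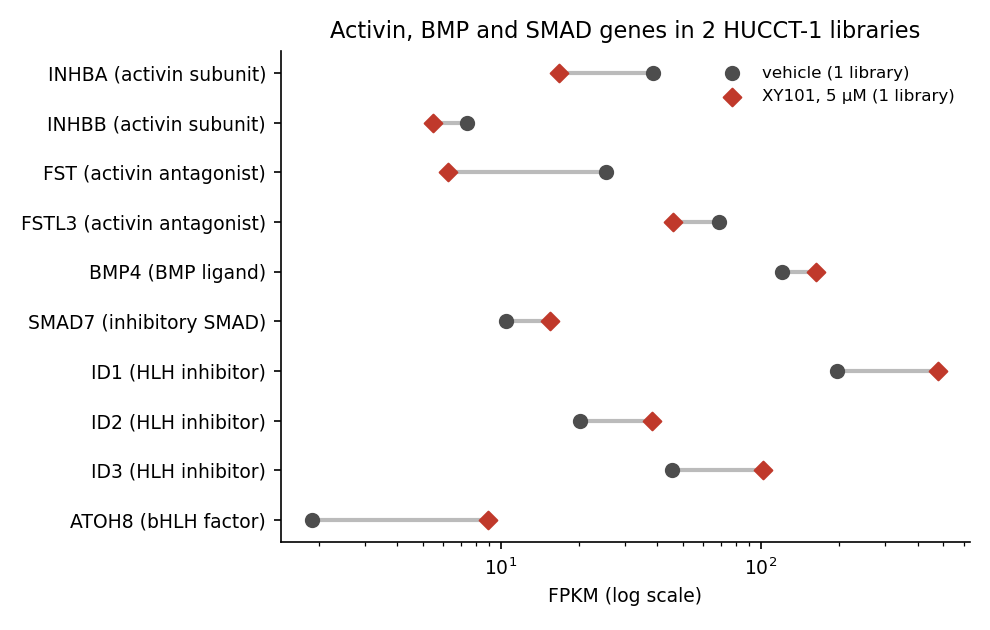
FPKM (log scale) of the 10 genes in the vehicle library (grey circles) and the XY101 library (red diamonds), with a line joining the values of a gene. The 4 genes at the top were lower with XY101 and the 6 below them higher, with the longest lines for FST (25.29 and 6.24 FPKM) and ATOH8 (1.88 and 8.90 FPKM).

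Activin subunit genes were lower with XY101. INHBA encodes the subunit of activin A, and it was 38.29 FPKM with vehicle and 16.75 with XY101, a log2 ratio of -1.19. INHBB, the subunit of activin B, was 7.38 and 5.50 FPKM, a log2 ratio of -0.42. Summed over both genes, the level was 45.67 FPKM with vehicle and 22.25 with XY101, 2.05-fold lower. INHBA made up 83.84% of this sum with vehicle and 75.28% with XY101, so it was the main activin subunit gene in both libraries. INHA, the α subunit that pairs with either of them to form inhibin, was near the floor of the table at 0.16 and 0.38 FPKM.

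The activin antagonist genes differed in the same direction. FST, which encodes follistatin, was 25.29 FPKM with vehicle and 6.24 with XY101, a log2 ratio of -2.00. This was the 9th lowest ratio among the 10894 genes. FSTL3, a secreted relative of follistatin, was 68.90 and 45.98 FPKM, a log2 ratio of -0.58. FSTL3 was thus the more abundant antagonist transcript in both libraries, and the share of FST in the sum of both was 26.85% with vehicle and 11.95% with XY101. The summed antagonists were 94.19 and 52.22 FPKM, 1.80-fold lower. As ligand and antagonist genes were both lower, the ratio of summed antagonist to summed activin subunit FPKM was 2.06 with vehicle and 2.35 with XY101. FST alone was 0.66 of INHBA with vehicle and 0.37 with XY101.

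BMP4, a secreted BMP ligand, was 120.31 FPKM with vehicle and 162.62 with XY101, a log2 ratio of 0.43. Its percentile among the 16654 genes was 94.8 with vehicle and 96.2 with XY101, and it had the highest FPKM of the BMP and GDF ligand genes. BMP4 lay inside the central 90% of ratios, as did SMAD7. SMAD7, the feedback inhibitor induced by both branches, was 10.47 and 15.50 FPKM, a log2 ratio of 0.56. In FPKM the largest single difference in the activin and BMP ligand genes was that of BMP4, 42.31 FPKM higher, beside a difference of -21.54 FPKM for INHBA. The ratio of BMP4 to INHBA was 3.14 with vehicle and 9.71 with XY101.

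The ID genes were higher with XY101. They encode helix-loop-helix proteins with no DNA-binding region, which bind E proteins and keep them from DNA. ID1 was 195.15 FPKM with vehicle and 480.50 with XY101, a log2 ratio of 1.30. ID3 was 45.67 and 102.12 FPKM, a log2 ratio of 1.16. ID2 was 20.15 and 37.94 FPKM, a log2 ratio of 0.91, which is 1.88-fold. All of the 3 were higher, with ID1 the most abundant and ID2 the least in both libraries. Their summed FPKM was 260.97 with vehicle and 620.56 with XY101, 2.38-fold higher, while the make-up of the sum moved little. ID1 was 74.78% of it with vehicle and 77.43% with XY101, ID3 17.50% and 16.46%, and ID2 7.72% and 6.11%. ID1 ranked 549th of the 16654 genes by FPKM with vehicle and 219th with XY101. At a mean of at least 100 FPKM, 4 of 1015 genes (0.394%) had a value with XY101 at least 2-fold higher and 3 (0.296%) one at least 2-fold lower, and ID1 was one of the 4. That level was picked after the values were seen.

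ATOH8, a basic helix-loop-helix transcription factor of the atonal family and a BMP target in endothelial cells, was the least abundant of the 10 genes with vehicle. It was 1.88 FPKM with vehicle and 8.90 with XY101, a log2 ratio of 2.18 and the 16th highest among the 10894 genes. Its place in the order of levels went from 9748th to 6145th of 16654 genes. FST moved the other way in that order, from 3149th to 7125th.

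**Figure D2:**
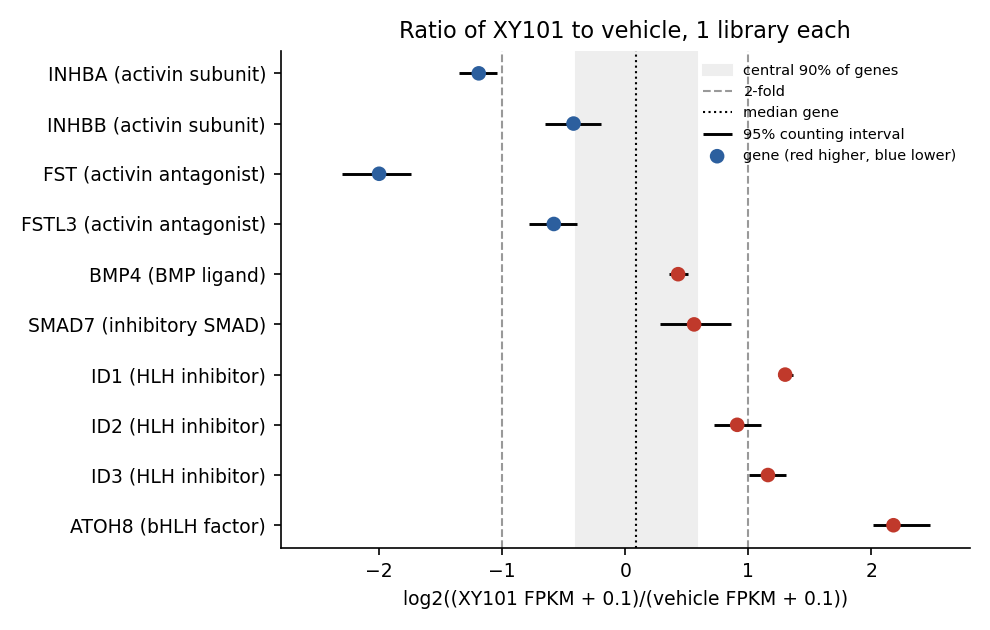
log2 ratio of XY101 to vehicle for each of the 10 genes (points, red higher and blue lower), with the 95% counting interval at the median coding transcript length (black bars), the central 90% of genes (grey band, -0.40 to 0.58), the 2-fold limits (dashed) and the median gene (dotted, 0.09). FST, INHBA, ATOH8, ID1 and ID3 lie beyond the 2-fold limits, and the bars of INHBB, FSTL3, BMP4 and SMAD7 reach into the grey band.

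Counting error was set beside each difference. At the estimated depths, and with the coding transcript of median length, FST corresponds to about 525 fragments with vehicle and 137 with XY101, and the 95% exact binomial interval of its log2 ratio ran from -2.30 to -1.74. For INHBA, about 1127 and 521 fragments gave an interval from -1.35 to -1.04. ATOH8 had about 176 and 879 fragments and an interval from 2.01 to 2.48. ID1, with about 2691 and 7005 fragments, had the narrowest interval, from 1.24 to 1.36. ID3 had an interval from 1.01 to 1.31 and ID2 from 0.72 to 1.10, so counting error alone spans the 2-fold limit for ID2. The interval of INHBB ran from -0.65 to -0.20, that of FSTL3 from -0.78 to -0.39, that of BMP4 from 0.36 to 0.51 and that of SMAD7 from 0.28 to 0.86. None of the 10 intervals included 0 at the median, the longest or the shortest coding transcript, although the lower bound of SMAD7 was 0.01 with the shortest. These intervals cover counting error only and say nothing of the spread between cultures, which 1 library per condition cannot show.

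**Figure D3:**
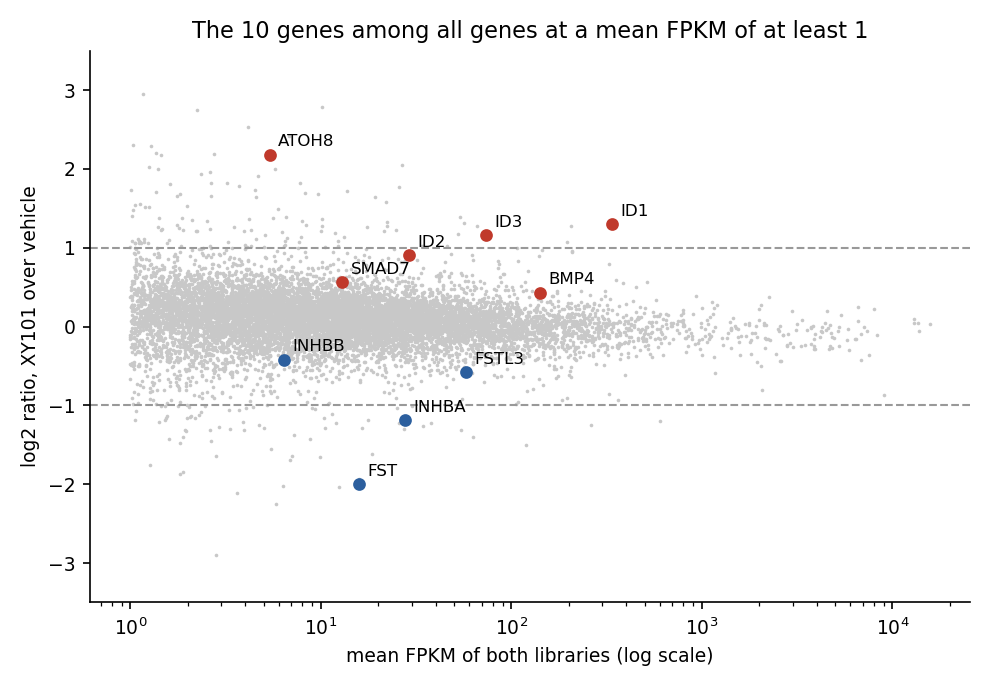
log2 ratio of XY101 to vehicle against mean FPKM (log scale) for the 10894 genes with a mean of at least 1 FPKM (grey), with the 10 genes named (red higher, blue lower) and the 2-fold limits dashed. ID1 lies beyond the 2-fold limit at a level where few genes do, and 9 genes with ratios beyond 3.5 in either direction are not drawn.

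In all, 132 genes of the pathway, the 10 included, were listed by role. Of these, 77, again with the 10 included, had a mean of at least 1 FPKM. Of the other 67, 1 was at least 2-fold higher and 2 at least 2-fold lower, 4.48% in all against 1.86% of all genes. Their median log2 ratio was 0.15 against 0.09. The lists were also chosen with earlier results of these data known, so nothing is read from these shares. The genes at least 2-fold different were SMAD6, IL11 and ANGPTL4.

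The other ligand, receptor and receptor-regulated or common SMAD genes listed with a mean of at least 1 FPKM differed by less than 2-fold. TGFB1 was at 41.44 and 38.56 FPKM and TGFB2 at 21.74 and 21.30 FPKM with vehicle and XY101, log2 ratios of -0.10 and -0.03. BMP2, the next BMP ligand after BMP4, was at 2.86 and 2.08 FPKM. Of 7 type I receptors, 4 had a mean of at least 1 FPKM, with a median log2 ratio of 0.22. The TGF-β receptor TGFBR1 differed most, at 2.55 and 4.06 FPKM, a log2 ratio of 0.65. The activin receptor ACVR1B was at 6.61 and 6.39 FPKM, ACVR1 at 4.97 and 5.55 FPKM and the BMP receptor BMPR1A at 2.45 and 3.01 FPKM. Of the type II receptors TGFBR2 was the most abundant at 75.08 and 88.84 FPKM, while the activin type II receptors ACVR2A (0.49 and 1.00 FPKM) and ACVR2B (0.70 and 0.71 FPKM) had means under 1 FPKM. SMAD3, of the activin branch, was at 47.75 and 56.22 FPKM, and SMAD1 and SMAD5, of the BMP branch, were at 3.72 and 5.61 FPKM and at 3.19 and 4.14 FPKM.

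Of 13 intracellular brakes at a mean of at least 1 FPKM, 1 reached 2-fold higher and none reached 2-fold lower, and the median log2 ratio was 0.28. SMAD6, the inhibitory SMAD most tied to BMP signals, had 4.11 FPKM with vehicle and 8.82 with XY101, a log2 ratio of 1.08. The ratio of SMAD7 to SMAD6 was 2.55 with vehicle and 1.76 with XY101. PMEPA1, which keeps SMAD2 and SMAD3 from the receptor, was 196.32 and 268.55 FPKM. NEDD4L, a ubiquitin ligase for activated SMAD2 and SMAD3, was 20.58 and 14.27 FPKM.

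Of 10 genes listed as extracellular antagonists with a mean of at least 1 FPKM, FST was at least 2-fold lower. None was as much higher, and the median log2 ratio was 0.05. The LTBP genes are counted among the 10, so this median is not of antagonists alone. FSTL1, which shares the follistatin domain with FST and FSTL3, was 35.01 and 37.76 FPKM. LTBP3, which holds latent TGF-β, was 17.96 and 32.70 FPKM (log2 ratio 0.86). NOG, which encodes the BMP4 antagonist noggin and was picked after its values were seen, was 11.99 and 6.36 FPKM, a log2 ratio of -0.90. The ratio of BMP4 to NOG was 10.03 with vehicle and 25.57 with XY101. NBL1, which had the highest mean FPKM of the listed antagonists, was 65.30 FPKM with vehicle and 72.69 with XY101. Its log2 ratio was 0.15, so the ratio of BMP4 to NOG stands for NOG alone.

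Genes that respond to BMP through SMAD1 and SMAD5 had the highest list median. Of 11 with a mean of at least 1 FPKM, 4 were at least 2-fold higher and none lower, with a median log2 ratio of 0.75, but ID1, ID2, ID3, SMAD7 and ATOH8 are among them by choice. Without these, 6 genes were left, of which 1, SMAD6, was at least 2-fold higher and the median was 0.40. The homeobox gene MSX2 was 4.97 FPKM with vehicle and 7.59 with XY101, and the osteoblast factor gene RUNX2 was 2.38 and 4.07 FPKM. BAMBI, a decoy receptor, was 0.97 and 1.13 FPKM. The 2 genes below 0, picked after their values were seen, were MSX1 at 1.44 and 0.82 FPKM and GATA3 at 2.79 and 2.05 FPKM.

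Genes that respond to activin and TGF-β through SMAD2 and SMAD3 lay on both sides of the median gene, 12 above and 12 below. Of 24 with a mean of at least 1 FPKM, none reached 2-fold higher and 3 reached 2-fold lower, beside 1.17% and 0.698% of all genes. The median log2 ratio of the 24 was 0.09, that of all genes. FST, FSTL3 and SMAD7 are among the 24 by choice. Without these, 21 genes were left, of which none reached 2-fold higher and 2 reached 2-fold lower, with a median of 0.10. The 3 lower genes were FST, IL11 and ANGPTL4. The cytokine gene IL11 was 28.09 FPKM with vehicle and 9.13 with XY101 (log2 ratio -1.61), and ANGPTL4, which inhibits lipoprotein lipase, was 7.13 and 2.87 FPKM (-1.28). On the other side lay, among others, the matrix gene TGFBI at 505.66 and 637.64 FPKM and the fibronectin gene FN1 at 126.70 and 165.88 FPKM. Several of these genes also respond to other pathways.

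**Figure D4:**
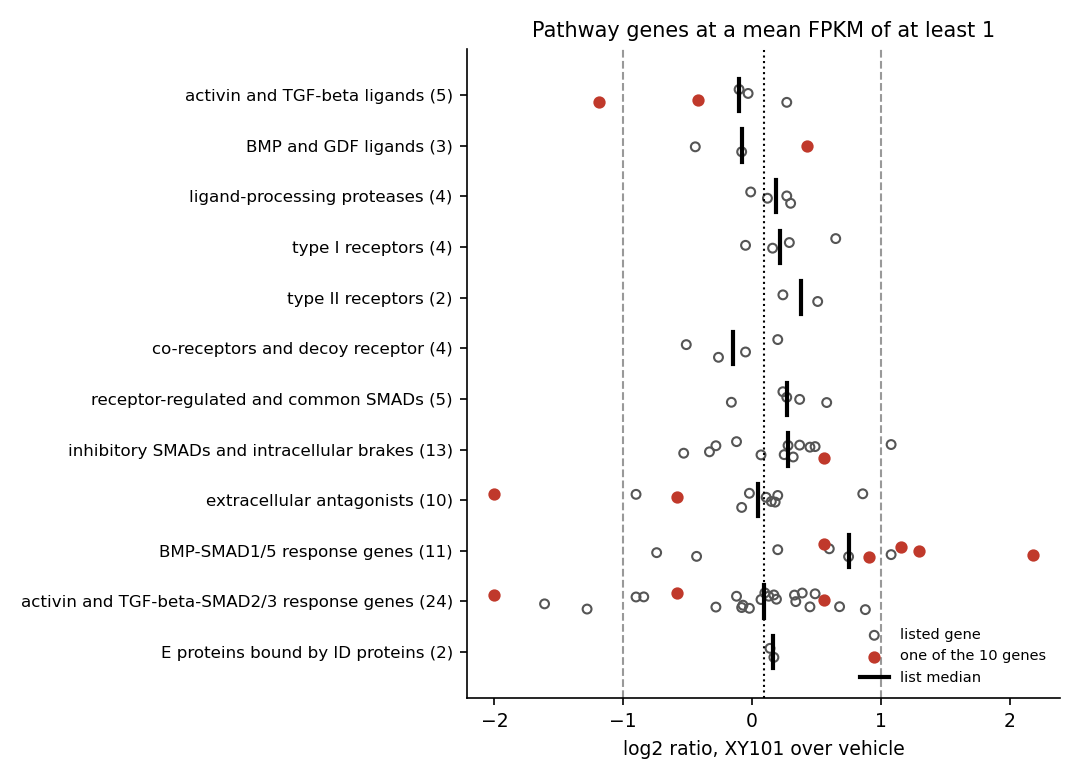
log2 ratio of XY101 to vehicle for listed pathway genes with a mean of at least 1 FPKM, by role, with the number of genes in brackets, the 10 genes in red, other genes as open circles, list medians as black bars, 2-fold limits dashed and the median gene dotted. The BMP-SMAD1/5 list has its median at 0.75, most of its genes to the right and 5 red points among them, while the SMAD2/3 list spreads on both sides of 0.09.

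INHBA, BMP4 and ID2 share 3.0%, 16.3% and 6.6% of their exon bases with a gene on the opposite strand in GENCODE release 44. The sources used here do not say whether counting used strand, so for these 3 genes a part of the value may belong to the partner gene.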

How the data were processed

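The deposited table holds FPKM made by the authors for 1 vehicle and 1 XY101 library of HUCCT-1 cells, rounded to 2 decimals. The paper's methods name a TruSeq library, GRCh37/hg19, BWA, Bowtie 2 and RSEM, whereas the submitters' notes name a KAPA library, GRCh38, HISAT2 and HTSeq 0.11.2, so how reads were counted is not settled. Of 17424 rows, 770 name no gene and were not read. The members and gene lists were chosen with earlier results of these data known. Ratios used a pseudocount of 0.1 FPKM, a mean of at least 1 FPKM and a 2-fold limit. All 10 genes were named, and from each list every gene at least 2-fold different and up to 4 of the most abundant others, while INHA, NOG, MSX1 and GATA3 were picked after their values were seen. Genes of like pattern were not named, since 2 libraries give 1 ratio a gene. Depth was estimated by scanning for the lowest depth and length offset (320 nt in both libraries) at which low FPKM values of single-transcript genes became whole fragments. Lengths came from GENCODE release 44 and promoter windows from RefSeq, where all 10 genes matched. Protein sequences were not used here. Steps were tested on simulated data. Alternatives covered the pseudocount, filter, threshold, centring, scaling and transcript length. The tools were matplotlib 3.10.9, scipy 1.17.1, numpy 2.4.6 and pandas 2.3.3 under Python 3.11.15.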

Additional observations from a re-analysis of the deposited data

How the results depend on the processing

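Under 8 other settings the 10 genes gave 3 at least 2-fold higher and 2 at least 2-fold lower, except that the 1.5-fold limit gave 4 higher, with ID2 added. All 10 log2 ratios kept their sign under the other pseudocounts, centring and scaling, and the range was widest for ATOH8, from 1.78 with a pseudocount of 1 FPKM to 2.24 with 0.01 FPKM. For FST it ran from -2.09 to -1.86 and for ID1 from 1.21 to 1.34. The counts over all genes depended on the setting. Against 127 higher and 76 lower, a pseudocount of 1 FPKM gave 69 and 41, no filter on mean FPKM 409 and 268, a filter at 5 FPKM 53 and 34, and the 1.5-fold limit 534 and 253. Centring on the median gene gave 96 and 95. Of 84 list medians recomputed, 71 moved, which here means any difference once rounded to 2 decimals. The type I receptor median, for example, went from 0.22 to 0.23 with a pseudocount of 0.01 FPKM. The BMP and GDF ligand median went from -0.08 to 0.43 with the filter at 5 FPKM. No paired analysis was possible because each condition has 1 library. Among the 10 genes the counting intervals at the median transcript length were widest for SMAD7 and FST. No repeat of a culture or library was available here.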

Other observations

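E proteins, the partners that ID proteins bind, were measured at a mean of at least 1 FPKM for 2 of 3 genes. TCF3 was 28.56 FPKM with vehicle and 31.53 with XY101, TCF12 was 4.95 and 5.60 FPKM, and TCF4 was 0.04 and 0.05 FPKM. The summed FPKM of these genes was 33.55 and 37.18, beside 260.97 and 620.56 for the ID genes.

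Of 7 proteases that process the ligands, 4 had a mean of at least 1 FPKM and none differed by 2-fold. FURIN, which cleaves activin and BMP precursors, was 20.08 FPKM with vehicle and 20.01 with XY101, BMP1, a metalloprotease that cleaves chordin, was 20.66 and 24.89 FPKM, and PCSK7 and PCSK6 were 12.19 and 13.22 FPKM and 2.16 and 2.68 FPKM.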
